A study of Mus musculus with 18 samples.

Results

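Chemokines are small secreted proteins that guide moving cells by binding receptors on their surface. The chemokine ligand genes examined here are those whose symbol in the deposited count table starts with Ccl, Cxcl or Cx3cl followed by a digit. The rule took 39 of the 35275 genes of the table. Of these 39 genes, 7 had no count in any library, 8 had 1 to 9 counts in all and 24 had 10 or more.

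Chemokine genes fall into groups by what switches them on and by which cells they call. *Cxcl9*, *Cxcl10*, *Cxcl11* and *Ccl5* are induced by interferons or NF-κB and attract T cells, while CXC chemokines that carry the motif Glu-Leu-Arg attract neutrophils. Homeostatic chemokines such as *Cxcl12* are made without inflammation and place cells within a tissue. In nerve sheath tumors, as in other tumors, chemokines help set which leukocytes enter the tissue.

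The libraries were made from cells grown out of mouse malignant peripheral nerve sheath tumors (MPNSTs), sarcomas that arise in nerves. Tumors had been started in the sciatic nerve of wild-type mice with an adenovirus that carried Cas9, driven by the broadly active CMV promoter, and guides. In both groups the guides targeted *Nf1*, the Ras regulator that is lost in neurofibromatosis type 1. The *Nf1*/*p53* dKO group had *p53* (*Trp53*) deleted in addition, and the *Nf1*/*Cdkn2a* dKO group had *Cdkn2a*, which encodes p16 and p19ARF. Each genotype had 3 lines from 3 separate tumors, and each line was sequenced as 3 untreated cultures, which gave 18 libraries of bulk RNA. A line is 1 tumor's outgrowth, passaged in serum-containing medium without the host's immune cells, so that each genotype is represented by 3 tumors only. No normal nerve or Schwann cell sample was analysed here. The comparison between genotypes asks which chemokine genes differ with the second tumor suppressor lost.

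Depth was even, with 19560535 to 28312207 counts per library and 65206479 to 73065228 per line. *Trp53* stood at 94.1, 67.5 and 58.7 CPM (TMM-scaled counts per 1e6 counts) in *Nf1*/*p53* dKO lines 1, 2 and 3 and at 247, 246 and 185 CPM in *Nf1*/*Cdkn2a* dKO lines 1, 2 and 3 (log2 difference 1.62, SE 0.23, adjusted p = 0.0361, edgeR). *Cdkn2a* and *Nf1* RNA did not separate the genotypes (adjusted p = 0.830 and 0.328, edgeR), and small edits made by a guide need not lower a transcript's count. Of the listed mesenchymal markers, *Vim* stood at 4727 to 10210 CPM. *Sox10*, a defining Schwann cell factor, was at most 0.0990 CPM and the pan-leukocyte gene *Ptprc* at most 0.563 CPM in any line. Other listed markers of these cell types were higher. *Ngfr* and *Mbp* reached 64.3 and 6.38 CPM in *Nf1*/*p53* dKO line 2. *Laptm5* and *Cd53* reached 18.6 and 12.3 CPM in *Nf1*/*Cdkn2a* dKO line 3.

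Upstream sequences of 5 members are shown because the interferon-induced and neutrophil-attracting genes are known targets of NF-κB and interferon factors. They are read from RefSeq on GRCm38.p6 in the direction of transcription and end at the last base before the start of the gene. Capitals mark matches on either strand to 3 motifs, namely the κB consensus of NF-κB, an interferon-response type motif (GAAANNGAA) and an AP-1 type motif (TGANTCA). *Cxcl10* is given from chr5:92348890-92349139, minus strand, and *Cxcl9* from chr5:92328080-92328329, minus strand. The 120 bases before the start are given for *Cxcl1* (chr5:90891125-90891244), *Cxcl2* (chr5:90903779-90903898) and *Cxcl3* (chr5:90785981-90786100), all on the plus strand.
*Cxcl10*: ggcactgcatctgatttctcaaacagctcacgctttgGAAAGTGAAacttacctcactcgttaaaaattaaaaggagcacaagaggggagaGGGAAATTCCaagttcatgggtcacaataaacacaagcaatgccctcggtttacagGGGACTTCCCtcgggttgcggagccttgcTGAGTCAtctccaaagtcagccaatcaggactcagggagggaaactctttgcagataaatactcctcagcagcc
*Cxcl9*: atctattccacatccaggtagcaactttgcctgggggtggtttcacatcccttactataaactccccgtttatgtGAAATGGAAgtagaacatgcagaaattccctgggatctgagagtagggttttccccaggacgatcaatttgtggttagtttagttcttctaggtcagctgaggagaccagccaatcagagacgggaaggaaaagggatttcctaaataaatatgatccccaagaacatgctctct
*Cxcl1*: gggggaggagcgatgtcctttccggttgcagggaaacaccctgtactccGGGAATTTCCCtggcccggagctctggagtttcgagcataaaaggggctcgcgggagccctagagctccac
*Cxcl2*: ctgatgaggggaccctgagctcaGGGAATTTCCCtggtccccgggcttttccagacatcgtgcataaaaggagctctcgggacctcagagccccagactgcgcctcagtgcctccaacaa
*Cxcl3*: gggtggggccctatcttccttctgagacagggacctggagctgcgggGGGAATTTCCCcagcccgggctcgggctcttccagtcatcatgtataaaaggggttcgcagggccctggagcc

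Counted from the start of the gene, the *Cxcl10* sequence held an interferon-response type match at -213 to -205, κB matches at -159 to -150 and -103 to -94 and an AP-1 type match at -74 to -68. *Cxcl9* held an interferon-response type match at -175 to -167 and no κB match. *Cxcl1*, *Cxcl2* and *Cxcl3* each held the same 11-base κB stretch, GGGAATTTCCC, at -71, -97 and -73, which reads as the motif on both strands. Of the 39 members, 26 had a promoter in the RefSeq table (250 bases before to 50 after the start), among them 13 of the 19 that entered the genotype test. Those 13 had 16 promoters, of which 6 held a κB match, 3 an interferon-response type match and 4 an AP-1 type match. Over all 32851 promoters of the same length the shares were 4.51% for κB, 8.56% for the interferon-response type and 7.81% for AP-1. Promoters of *Ccl2*, *Ccl5*, *Ccl7*, *Ccl11*, *Cxcl5* and *Cxcl16* were not used here.

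Several members lie beside each other on the chromosomes (positions from GENCODE M21 on GRCm38). *Cxcl5*, *Cxcl3*, *Cxcl15*, *Cxcl1* and *Cxcl2* span 146.6 kb (chr5:90759360-90905938), and *Cxcl9*, *Cxcl10* and *Cxcl11* span 44.1 kb (chr5:92321347-92365485). On chromosome 11, *Ccl2*, *Ccl7*, *Ccl11*, *Ccl12*, *Ccl8* and *Ccl1* span 270.1 kb (chr11:82035571-82305690) and *Ccl5*, *Ccl9*, *Ccl6*, *Ccl3* and *Ccl4* span 138.9 kb (chr11:83525778-83664683). These last clusters lie 2.45 to 4.08 Mb from *Nf1*, which was targeted in both groups.

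Between the genotypes, 19 members passed the filter on low counts, and 3 of them were lower in the *Nf1*/*Cdkn2a* dKO lines at an adjusted p under 0.05 (*Cxcl10*, *Ccl5* and *Cx3cl1*), while 0 were higher. Of all 15207 genes tested, 1.80% were called, 1.16% lower and 0.638% higher. At an unadjusted p under 0.05 the members passing were 9 of 19, beside 22.4% of all genes. In 8 of the 19 members all 3 *Nf1*/*Cdkn2a* dKO lines lay below all 3 *Nf1*/*p53* dKO lines, and in 0 they lay above, beside 16.6% and 14.8% of all genes. The median log2 difference (*Nf1*/*Cdkn2a* dKO minus *Nf1*/*p53* dKO) of the 19 was -1.49 and that of all genes -0.02. Its sign was negative for 17 members, and *Cxcl12* and *Ccl17* had positive values near 0. The 19 are those that passed the filter and not the whole family. Of the 8 without overlap, *Cxcl9* and *Cxcl14* did not reach 10 counts in every line and passed through the lines where they were high, so these counts and the median are no support for a direction.

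**Figure D1:**
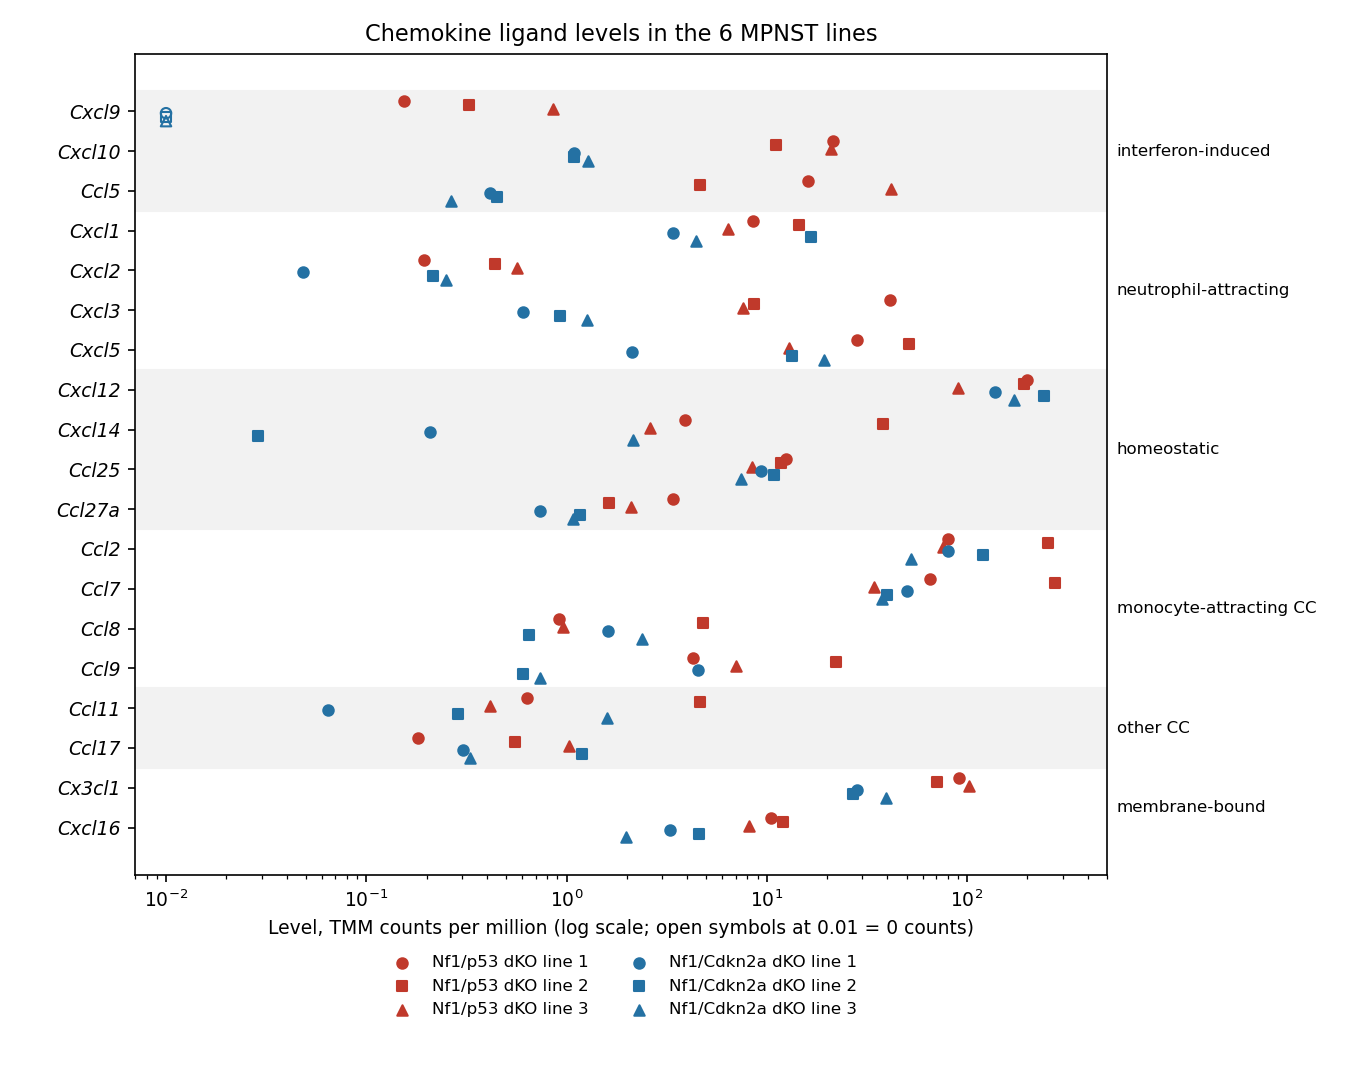
Level of the 19 tested chemokine genes in each of the 6 lines, in CPM on a log axis, grouped by class; red symbols are *Nf1*/*p53* dKO lines and blue symbols *Nf1*/*Cdkn2a* dKO lines. *Cxcl10*, *Ccl5*, *Cxcl3*, *Cx3cl1* and *Cxcl16* have every blue symbol to the left of every red one, whereas the symbols of *Cxcl12*, *Ccl2* and *Cxcl1* are mixed.

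Interferon-induced chemokines were low or absent in the *Nf1*/*Cdkn2a* dKO lines. *Cxcl10* (ENSMUSG00000034855, chr5:92346638-92348889, minus strand), which calls CXCR3-bearing T cells and natural killer cells, stood at 21.5, 11.2 and 20.9 CPM in *Nf1*/*p53* dKO lines 1, 2 and 3. In *Nf1*/*Cdkn2a* dKO lines 1, 2 and 3 it stood at 1.09, 1.10 and 1.28 CPM. The lowest of the 9 *Nf1*/*p53* dKO cultures (10.1 CPM) was above the highest of the 9 others (1.72 CPM), so neither lines nor cultures overlapped. *Cxcl10* was thus 15.4-fold lower in the *Nf1*/*Cdkn2a* dKO lines (log2 difference -3.95, SE 0.35, adjusted p = 0.0189, edgeR). The call was lost without any one of the *Nf1*/*Cdkn2a* dKO lines 1, 2 and 3 (adjusted p = 0.0929, 0.0947 and 0.0669), and its log2 difference ranged from -4.18 to -3.79 over the 6 lines left out in turn. In bulk RNA, fewer cells that express a gene and less RNA per cell cannot be told apart.

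*Ccl5* (ENSMUSG00000035042, chr11:83525778-83530518, minus strand), which draws T cells and monocytes, stood at 16.0, 4.64 and 41.9 CPM in *Nf1*/*p53* dKO lines 1, 2 and 3. Its level was 0.417, 0.447 and 0.266 CPM in *Nf1*/*Cdkn2a* dKO lines 1, 2 and 3, or 26, 31 and 17 counts. *Nf1*/*p53* dKO line 3 was far above the other lines, and even the lowest culture of that genotype (2.97 CPM) was above the highest of the other (0.7995 CPM). The log2 difference was -5.78 (SE 0.89, adjusted p = 0.0420, edgeR). The call held without *Nf1*/*p53* dKO line 2 (adjusted p = 0.0386) and was lost without any of the other lines (adjusted p = 0.0514 to 0.143), with log2 differences of -6.24 to -4.76.

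*Cxcl9* and *Cxcl11*, the other CXCR3 ligands, were scarce in every line and had no count in any *Nf1*/*Cdkn2a* dKO library. *Cxcl9* gave 12, 23 and 62 counts in *Nf1*/*p53* dKO lines 1, 2 and 3, which at a floor of 3 counts over the group is at least 28.7-fold lower in the *Nf1*/*Cdkn2a* dKO lines. Its adjusted p was 0.0728 in edgeR and it was not called. *Cxcl11* gave 10, 10 and 58 counts, at least 23.1-fold lower by the same floor, and did not pass the filter. The deposited counts type *Cxcl11* as a polymorphic pseudogene, and whether it codes for protein in these mice was not examined. The 3 genes of this cluster were all lower in the *Nf1*/*Cdkn2a* dKO lines, where *Cxcl10* kept 68, 76 and 82 counts. *Nf1*/*p53* dKO line 3 held most counts of *Cxcl9* and *Cxcl11*, while *Cxcl10* was close in lines 1 and 3 of that genotype. Exons of *Cxcl10* overlap *Art3* (133 bases, 58 counts) and those of *Cxcl11* overlap *Gm2673* (1582 bases, 0 counts) on the opposite strand, and whether the counting used strand is not given in the sources used here.

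**Figure D2:**
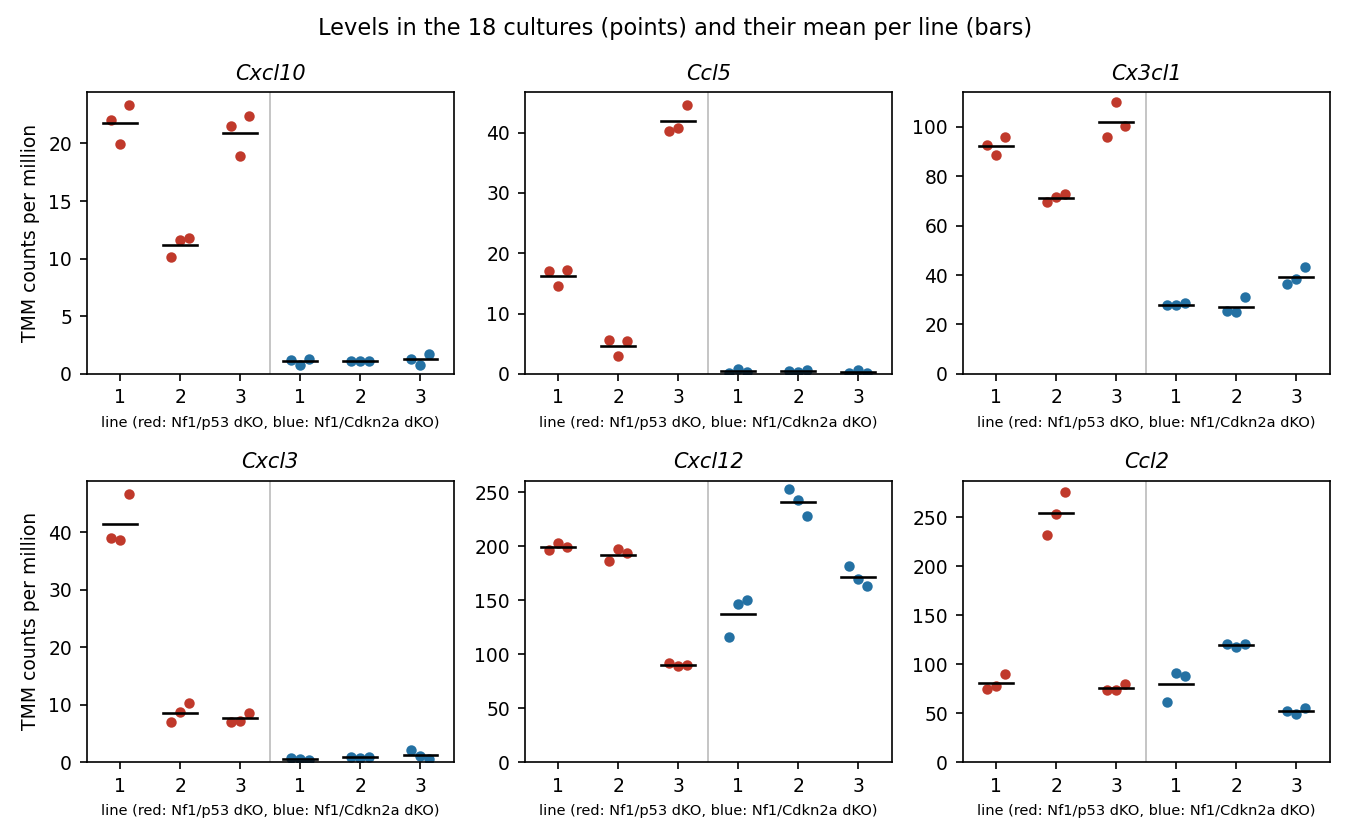
CPM of 6 chemokine genes in each of the 18 cultures (points; 3 per line) with the mean per line (black bars), on linear axes that start at 0. *Cxcl10*, *Ccl5*, *Cx3cl1* and *Cxcl3* separate red (*Nf1*/*p53* dKO) from blue (*Nf1*/*Cdkn2a* dKO) in every culture, and *Cxcl12* and *Ccl2* do not.

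The summed level of the 4 interferon-induced members was 38.4, 16.3 and 64.5 CPM in *Nf1*/*p53* dKO lines 1, 2 and 3 (SD over 3 cultures 3.28, 1.44 and 3.38). In the *Nf1*/*Cdkn2a* dKO lines it was 1.503, 1.55 and 1.54 CPM (SD 0.116, 0.165 and 0.273). *Cxcl10* led the sum in 5 lines with 56.8 to 82.4% of it, and *Ccl5* in *Nf1*/*p53* dKO line 3 with 65.0%. Of all chemokine CPM, this class made up 1.67 to 15.1% in the *Nf1*/*p53* dKO lines and 0.322 to 0.465% in the others.

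Among neutrophil-attracting chemokines, 0 of the 4 tested members were called between genotypes in edgeR on the 6 lines (1 at an unadjusted p under 0.05), and *Cxcl3* was called by some other fits. *Cxcl3*, a CXCR2 ligand, stood at 41.1, 8.63 and 7.62 CPM in *Nf1*/*p53* dKO lines 1, 2 and 3 and at 0.610, 0.923 and 1.27 CPM in *Nf1*/*Cdkn2a* dKO lines 1, 2 and 3. No culture overlapped between genotypes (lowest 6.96 CPM against highest 2.17 CPM), and line 1 was 4.76-fold above the next. The log2 difference was -4.35 (SE 0.81), with an adjusted p of 0.0525 in edgeR, just over the threshold. *Cxcl3* was called by DESeq2 on the 6 lines (adjusted p = 2.86e-08), by limma-voom with a random effect per line (0.0153), and by edgeR without a filter (0.0354) or with total counts (0.0467). In edgeR it was not called with DESeq2 size factors (0.05205), upper-quartile factors (0.05241) or at least 10 counts in every line (0.05299). With the line number as a block the adjusted p was 0.153. Without *Nf1*/*p53* dKO line 1, the highest line, the difference was -3.12 and the adjusted p 0.0483, and without any other line the adjusted p was 0.0673 to 0.164.

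*Cxcl5*, which shares the receptor CXCR2, lies in the same cluster as *Cxcl3* and overlapped between genotypes. It stood at 28.2, 51.1 and 12.97 CPM in *Nf1*/*p53* dKO lines 1, 2 and 3 and at 2.13, 13.4 and 19.3 CPM in *Nf1*/*Cdkn2a* dKO lines 1, 2 and 3 (log2 difference -1.41, SE 0.82, adjusted p = 0.356), with differences of -1.98 to -0.82 over the lines left out in turn. *Cxcl1*, the main mouse neutrophil attractant of this group, stood at 8.58, 14.5 and 6.42 CPM in *Nf1*/*p53* dKO lines 1, 2 and 3 and at 3.38, 16.6 and 4.44 CPM in *Nf1*/*Cdkn2a* dKO lines 1, 2 and 3. *Nf1*/*Cdkn2a* dKO line 2 was the highest of all 6 for *Cxcl1*, and its log2 difference was -0.27 (SE 0.66, adjusted p = 0.836). *Cxcl2* was at 0.0481 to 0.567 CPM (log2 difference -1.21, SE 0.71, adjusted p = 0.364), and *Cxcl15* had 2 counts in all. Of the genes with the shared κB stretch, *Cxcl3* was highest in *Nf1*/*p53* dKO line 1 and *Cxcl1* in *Nf1*/*Cdkn2a* dKO line 2, and the highest line of *Cxcl2* was not resolved at its 121 counts.

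As a class, the neutrophil-attracting members summed to 78.8, 74.8 and 27.7 CPM in *Nf1*/*p53* dKO lines 1, 2 and 3 (SD over 3 cultures 7.24, 1.77 and 3.90). The *Nf1*/*Cdkn2a* dKO lines had 6.23, 31.1 and 25.2 CPM (SD 1.27, 0.914 and 0.393). *Ppbp*, a neutrophil chemokine outside the name rule, is not in these sums. *Cxcl3* led the sum in *Nf1*/*p53* dKO line 1, *Cxcl5* in *Nf1*/*p53* dKO lines 2 and 3 and *Nf1*/*Cdkn2a* dKO line 3, and *Cxcl1* in *Nf1*/*Cdkn2a* dKO lines 1 and 2. The median log2 difference of the 4 tested members was -1.31.

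Homeostatic chemokines were dominated by *Cxcl12* in every line. *Cxcl12*, the CXCR4 ligand that retains stem cells and leukocytes in stroma, stood at 199, 192 and 90.5 CPM in *Nf1*/*p53* dKO lines 1, 2 and 3 and at 138, 243 and 172 CPM in *Nf1*/*Cdkn2a* dKO lines 1, 2 and 3. The lines of both genotypes were interleaved, and the log2 difference was 0.20 (SE 0.35, adjusted p = 0.767, edgeR). Its sign turned without *Nf1*/*p53* dKO line 3 (-0.08) or *Nf1*/*Cdkn2a* dKO line 2 (-0.04). The class summed to 219.6, 244.1 and 103.7 CPM in *Nf1*/*p53* dKO lines 1, 2 and 3 and to 147.9, 253.5 and 182.1 CPM in *Nf1*/*Cdkn2a* dKO lines 1, 2 and 3, of which *Cxcl12* was 78.9 to 95.2%.

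*Cxcl14*, a chemokine of epithelia and fibroblasts, was the most variable member. It stood at 3.92, 38.0 and 2.62 CPM in *Nf1*/*p53* dKO lines 1, 2 and 3 and at 0.209, 0.0289 and 2.16 CPM in *Nf1*/*Cdkn2a* dKO lines 1, 2 and 3 (13, 2 and 138 counts). The lines did not overlap but the nearest pair was close (log2 difference -4.22, SE 1.70, adjusted p = 0.210, edgeR). Its cultures did overlap (lowest 2.11 CPM in *Nf1*/*p53* dKO, highest 2.36 CPM in *Nf1*/*Cdkn2a* dKO). *Nf1*/*p53* dKO line 2 was 9.70-fold above the next line, and without it the difference was -2.02, while without *Nf1*/*Cdkn2a* dKO line 3 it was -6.96. *Ccl27a*, known from skin, stood at 3.39, 1.63 and 2.09 CPM in *Nf1*/*p53* dKO lines 1, 2 and 3 and at 0.738, 1.17 and 1.08 CPM in *Nf1*/*Cdkn2a* dKO lines 1, 2 and 3 (log2 difference -1.25, SE 0.42, adjusted p = 0.154). Cultures of *Ccl27a* overlapped as well (lowest 0.880 CPM in *Nf1*/*p53* dKO, highest 1.71 CPM in *Nf1*/*Cdkn2a* dKO).

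*Ccl25*, the gut and thymus chemokine, was at 7.43 to 12.4 CPM and differed by -0.24 on the log2 scale (SE 0.26, adjusted p = 0.625). Its exons share 204 bases with *Elavl1* on the opposite strand (64857 counts), and *Ccl27a* shares 8 bases with *Il11ra1* (6414 counts) and has a near copy, *Ccl27b*, with 0 counts, so both values are uncertain. *Ccl28*, a mucosal chemokine, had 24 counts in all. Among the other homeostatic members, *Cxcl13*, which attracts B cells, had 6 counts, all in *Nf1*/*p53* dKO lines, *Cxcl17* had 5 counts, and *Ccl19*, *Ccl21a* and *Ccl21b*, which guide T cells and dendritic cells to lymph nodes, had 0.

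**Figure D3:**
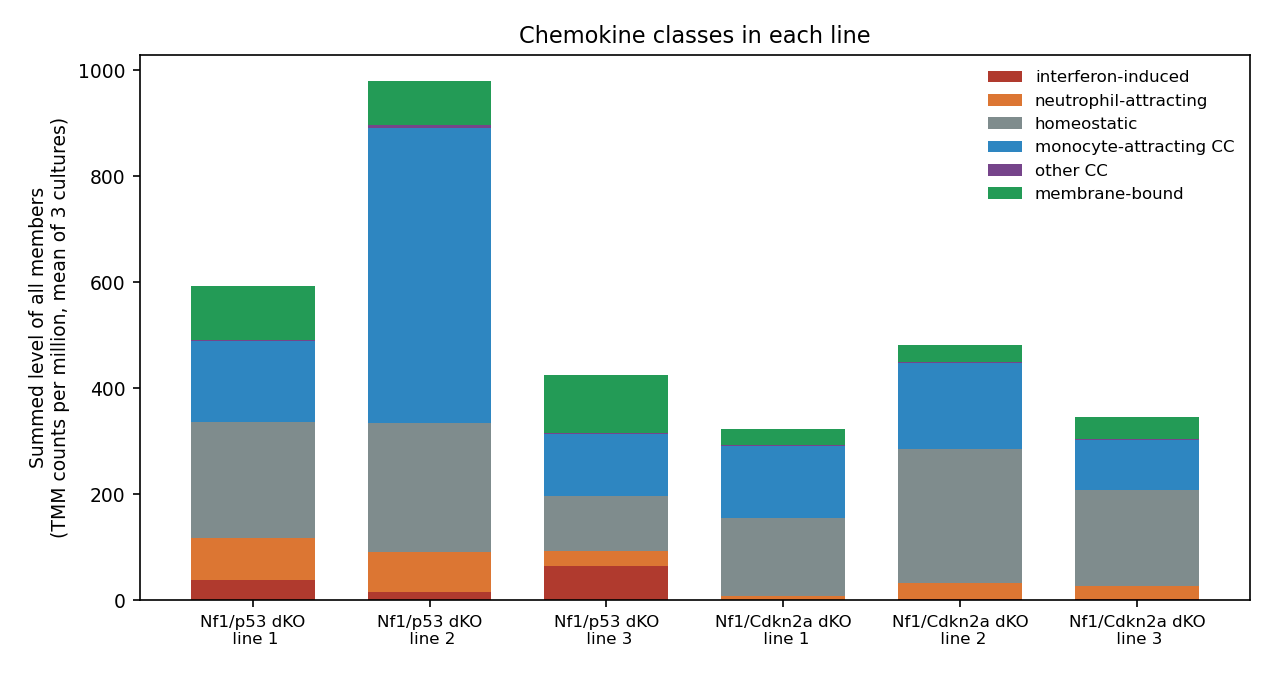
Summed CPM of each chemokine class in each line, as the mean of 3 cultures; bars start at 0. *Nf1*/*p53* dKO line 2 has the tallest bar, of which monocyte-attracting CC chemokines are 56.7%, and the interferon-induced part is visible only in the *Nf1*/*p53* dKO lines.

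Monocyte- and macrophage-attracting CC chemokines were abundant in all 6 lines and highest in *Nf1*/*p53* dKO line 2. *Ccl2*, the main CCR2 ligand, stood at 80.5, 253 and 75.7 CPM in *Nf1*/*p53* dKO lines 1, 2 and 3 and at 80.2, 120 and 52.7 CPM in *Nf1*/*Cdkn2a* dKO lines 1, 2 and 3 (log2 difference -0.70, SE 0.54, adjusted p = 0.491). *Ccl7*, its neighbor and another CCR2 ligand, stood at 65.6, 274 and 34.3 CPM in *Nf1*/*p53* dKO lines 1, 2 and 3 and at 49.9, 40.0 and 37.7 CPM in *Nf1*/*Cdkn2a* dKO lines 1, 2 and 3 (log2 difference -1.55, SE 0.73, adjusted p = 0.268). For both genes the groups overlapped, and without line 2 of the *Nf1*/*p53* dKO group the *Ccl2* difference was 0.12 and the *Ccl7* difference -0.22.

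*Ccl9*, a macrophage chemokine that binds CCR1, stood at 4.28, 22.2 and 7.03 CPM in *Nf1*/*p53* dKO lines 1, 2 and 3 and at 4.54, 0.606 and 0.735 CPM in *Nf1*/*Cdkn2a* dKO lines 1, 2 and 3. *Nf1*/*Cdkn2a* dKO line 1 lay within the range of the other genotype, and the log2 difference was -2.51 (SE 1.00, adjusted p = 0.207). It was -4.05 without *Nf1*/*Cdkn2a* dKO line 1 and -1.51 without *Nf1*/*p53* dKO line 2. *Ccl8* was at 0.649 to 4.80 CPM (log2 difference -0.52, SE 0.81, adjusted p = 0.738), and its difference was 0.73 without *Nf1*/*p53* dKO line 2. *Ccl4*, which attracts monocytes and T cells, gave 9, 11 and 6 counts in *Nf1*/*p53* dKO lines 1, 2 and 3, 2 counts in *Nf1*/*Cdkn2a* dKO line 2 and 0 in lines 1 and 3. *Ccl6* had 11 counts, *Ccl3* 6 and *Ccl12* 1.

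Chemokines of eosinophils and lymphocytes were at the low end. *Ccl11* (eotaxin) stood at 0.632, 4.63 and 0.415 CPM in *Nf1*/*p53* dKO lines 1, 2 and 3 and at 0.0642, 0.289 and 1.60 CPM in *Nf1*/*Cdkn2a* dKO lines 1, 2 and 3, and *Ccl17*, a CCR4 ligand, was at 0.180 to 1.197 CPM. The log2 differences were -1.54 (SE 1.33, adjusted p = 0.532) and 0.06 (SE 0.81, adjusted p = 0.973). *Ccl20* had 12 counts in all and *Ccl22* 6, all of the latter in *Nf1*/*Cdkn2a* dKO line 3. *Ccl1* had 3 counts, *Ccl24* 1 and *Ccl26* 0, and the pseudogenes *Ccl19-ps1* and *Ccl19-ps3* had 0.

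Both membrane-bound chemokines, which are made with a stalk and can be shed by proteases, were lower in the *Nf1*/*Cdkn2a* dKO lines without overlap, and 1 of them was called. *Cx3cl1* (fractalkine, ENSMUSG00000031778, chr8:94772009-94782427, plus strand), the ligand of CX3CR1 on monocytes and microglia, stood at 91.6, 71.2 and 102 CPM in *Nf1*/*p53* dKO lines 1, 2 and 3 and at 28.1, 26.99 and 39.5 CPM in *Nf1*/*Cdkn2a* dKO lines 1, 2 and 3. The lowest culture of the former (69.5 CPM) was above the highest of the latter (43.3 CPM). *Cx3cl1* was 2.80-fold lower (log2 difference -1.49, SE 0.22, adjusted p = 0.0388, edgeR). Leaving out any one of the 6 lines ended the call (adjusted p = 0.0659 to 0.143), with log2 differences of -1.68 to -1.36.

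*Cxcl16*, the CXCR6 ligand, stood at 10.5, 12.1 and 8.12 CPM in *Nf1*/*p53* dKO lines 1, 2 and 3 and at 3.29, 4.59 and 1.99 CPM in *Nf1*/*Cdkn2a* dKO lines 1, 2 and 3. The difference was -1.64 on the log2 scale (SE 0.38) and its adjusted p of 0.0768 in edgeR missed the threshold. No culture overlapped between genotypes (lowest 7.67 CPM against highest 5.28 CPM). *Cxcl16* was called by DESeq2 on the 6 lines (adjusted p = 0.000646) and by limma-voom with a random effect per line (0.00342). In edgeR it was not called with other scalings or filters (0.0630 to 0.0809) or with any line left out (0.101 to 0.211). It lies 0.86 Mb from *Trp53*, and its exons share 552 bases with *Zmynd15* on the opposite strand (409 counts).

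**Figure D4:**
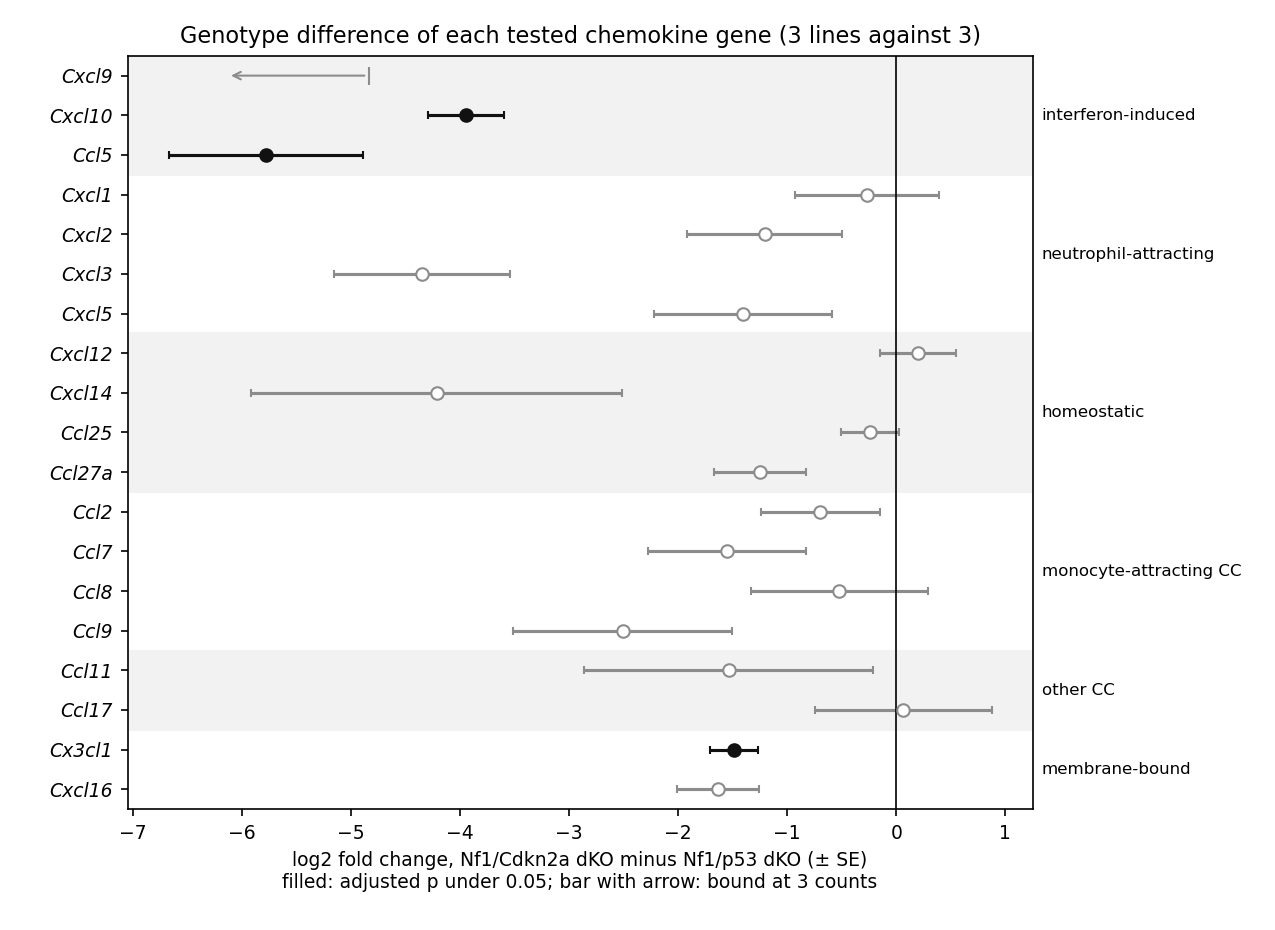
Log2 difference (*Nf1*/*Cdkn2a* dKO minus *Nf1*/*p53* dKO) of the 19 tested chemokine genes with standard errors, 3 lines against 3; filled points passed an adjusted p under 0.05 in edgeR, and the bar with an arrow is the bound for *Cxcl9*, which had 0 counts in 1 genotype. *Cxcl10*, *Ccl5* and *Cx3cl1* are filled, and the points of *Cxcl12* and *Ccl17* lie to the right of 0.

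How many members are called differed between tools and between units of replication. With the 18 cultures as separate samples, 10 of 17 members were called, all lower, in edgeR and also in DESeq2, beside 46.5% and 48.9% of all genes in those fits. With the line as a random effect in limma-voom, 6 of 17 were called, beside 16.6% of all genes. DESeq2 on the 6 lines called 8 of 19, beside 14.3% of all genes. In each of these fits 0 members were called higher.

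Within a genotype, the lines differed from each other in most members, when compared with the spread between cultures of a line. Of 20 members tested, 19 differed among the 3 *Nf1*/*p53* dKO lines and 13 among the 3 *Nf1*/*Cdkn2a* dKO lines, beside 73.2% and 56.8% of all 14690 genes (edgeR on 18 cultures). All 13 were among the 19. The median ratio of the highest to the lowest line was 4.56 among the *Nf1*/*p53* dKO lines and 2.29 among the *Nf1*/*Cdkn2a* dKO lines, over members with a ratio. *Ccl5* differed among the *Nf1*/*p53* dKO lines (9.03-fold, adjusted p = 1.88e-12, edgeR) and did not pass among the *Nf1*/*Cdkn2a* dKO lines (1.68-fold, adjusted p = 0.508). *Cxcl10* had ratios of 1.93 and 1.18 (adjusted p = 1.71e-06 and 0.670). *Cxcl5* differed more among the *Nf1*/*Cdkn2a* dKO lines, with ratios of 3.94 and 9.04 (adjusted p = 2.04e-12 and 7.50e-14). *Cxcl2* was the member that passed in neither genotype.

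*Nf1*/*p53* dKO line 2 was the highest of the 6 lines for 8 of the 19 tested members, beside 16.2% of all tested genes. The 8 were the CC chemokines *Ccl2*, *Ccl7*, *Ccl8*, *Ccl9* and *Ccl11*, with *Cxcl5*, *Cxcl14* and *Cxcl16*. *Ppbp*, a platelet and neutrophil chemokine outside the name rule, was also highest there (36.0 CPM, against 0.360 to 3.235 CPM in the other lines). Schwann cell markers summed to 75.5 CPM in this line, of which *Ngfr* was 64.3, against 1.52 to 3.86 CPM in the other lines. Epithelial markers summed to 739 CPM there, to 611 CPM in *Nf1*/*Cdkn2a* dKO line 1 and to 2.67 to 183.5 CPM in the other lines. The sums of 739 and 611 CPM were almost all *Krt8* (540 and 601 CPM) and *Krt18* (199 and 9.31 CPM). *Epcam* was at most 0.764 CPM and *Cdh1* at most 1.26 CPM in any line, and *Krt14* and *Krt5* had 16 and 8 counts in all. *Mmp9* was at 84.8 CPM in *Nf1*/*p53* dKO line 2, against 0.188 to 3.92 CPM in the other lines. The part of these differences in the chemokine levels was not tested.

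*Nf1*/*p53* dKO line 3 led *Ccl5*, *Cxcl9*, *Cxcl11* and *Cx3cl1* and had the lowest *Cxcl12*. *Tnf*, which induces chemokines through NF-κB, was at 1.204 CPM in that line and at most 0.0469 CPM in the others, and *Il1b* was at 0.374 CPM there and 0 elsewhere. These cytokines were singled out after their values were seen, and their part in the chemokine levels was not tested. *Nf1*/*p53* dKO line 1 led *Cxcl3*, *Ccl25* and *Ccl27a*, and also *Cxcl10*, by 1.03-fold over line 3.

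Per kilobase of exon, with all annotated exons of a gene joined, the CCR2 ligands were the most abundant chemokines. This length was 8176 bases for *Cxcl12*, 801 for *Ccl7* and 1138 for *Ccl2*, takes no account of which transcripts were made, and sets the order. Without length, *Cxcl12* had the highest mean in both genotypes (160.5 and 184.4 CPM, against 136.5 and 84.3 for *Ccl2* and 124.7 and 42.6 for *Ccl7*, *Nf1*/*p53* dKO first). *Ccl7* and *Ccl2* averaged 104 and 97.0 CPM per kb over the 6 lines (range 42.9 to 342 and 46.3 to 223), which do not differ beyond their spread. *Cxcl12* followed with 21.1 (11.1 to 29.7), *Cx3cl1* with 15.3 (6.87 to 26.03), *Cxcl5* with 11.4 (1.15 to 27.4) and *Ccl5* with 11.1 CPM per kb (0.277 to 43.6), each within the range of its neighbor. *Ccl2* and *Ccl7* held the top ranks in 5 lines. In *Nf1*/*p53* dKO line 3, *Ccl5* was second at 43.6 CPM per kb, between *Ccl2* (66.5) and *Ccl7* (42.9). *Cxcl10* was at 4.96 to 9.56 CPM per kb in the *Nf1*/*p53* dKO lines and at 0.485 to 0.569 in the *Nf1*/*Cdkn2a* dKO lines, where *Cxcl1* was at 1.81 to 8.88 CPM per kb.

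Chemokine counts together were 0.0451 to 0.0997% of all counts in the *Nf1*/*p53* dKO lines and 0.0310 to 0.0466% in the *Nf1*/*Cdkn2a* dKO lines, which overlap. In *Nf1*/*p53* dKO line 2, which had the highest share, *Ccl2*, *Ccl7* and the rest of their class were 56.7% of the chemokine CPM. Homeostatic members made up 24.4 to 37.0% in the *Nf1*/*p53* dKO lines and 45.7 to 52.7% in the *Nf1*/*Cdkn2a* dKO lines. That share rested on *Cxcl12*, whose own level did not separate the genotypes.

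Several receptors of the ligands above were near the limit of detection. *Cxcr3*, the receptor of *Cxcl9*, *Cxcl10* and *Cxcl11*, had 27 counts over the 18 libraries, *Cx3cr1* 25, and *Cxcr2*, the receptor of the neutrophil-attracting group, 11. Of 18 chemokine receptor genes, 6 were tested and 0 were called in edgeR (2 at an unadjusted p under 0.05), beside 1.80% and 22.4% of all genes, with a median log2 difference of 0.91 beside -0.02 over all genes. *Ccr1*, a receptor of *Ccl5* and *Ccl9* proteins, was at 0.283 to 2.09 CPM and had the highest value (1.85, SE 0.53, adjusted p = 0.113) and *Ccr10* the lowest (-1.67, SE 0.60, adjusted p = 0.173). *Cxcr4*, the *Cxcl12* receptor, was at 1.19 to 12.5 CPM. *Ackr3*, which takes up *Cxcl12* and degrades it, was at 75.9 to 134 CPM and differed by 0.08 (SE 0.25, adjusted p = 0.868). *Ackr4*, which takes up CCR7 ligands, differed by -0.87 (SE 0.49, adjusted p = 0.346). Of 5 atypical receptors 2 were tested and 0 called in edgeR, none of them at an unadjusted p under 0.05.

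In the lists of regulators, cytokines and proteases 0 genes were called in edgeR, beside 1.80% of all genes, and the counts at an unadjusted p under 0.05 stand beside 22.4% of all genes. Of 14 NF-κB subunits and feedback genes, all 14 were tested, with 4 at an unadjusted p under 0.05 and a median log2 difference of -0.24. *Bcl3*, a nuclear IκB protein, was lowest (-2.51, SE 0.78, adjusted p = 0.131) and *Tnfaip3* (A20), an inhibitor of the pathway, highest (0.86, SE 0.36, adjusted p = 0.226). Of 15 interferon signaling genes, 13 were tested, with 3 at an unadjusted p under 0.05 and a median of 0.10.

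*Irf1*, which binds interferon-response motifs, had the lowest value of the interferon list. It stood at 32.03, 29.9 and 58.9 CPM in *Nf1*/*p53* dKO lines 1, 2 and 3 and at 10.8, 11.4 and 15.9 CPM in *Nf1*/*Cdkn2a* dKO lines 1, 2 and 3, without overlap (log2 difference -1.67, SE 0.32, adjusted p = 0.0554). *Jak2* had the highest (1.13, SE 0.26, adjusted p = 0.0796). *Ifng* had 6 counts in all and *Ifnb1* 1, while the receptor genes *Ifngr1* and *Ifnar1* were at 36.8 to 67.5 and 45.0 to 77.2 CPM.

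Cytokines that induce chemokines, with their receptors, had 8 of 12 genes tested, 0 called in edgeR, 1 at an unadjusted p under 0.05 and a median of -0.22. *Il6* was highest (2.55, SE 1.13, adjusted p = 0.246) and *Tnfrsf1b*, a TNF receptor, lowest (-0.94, SE 0.61, adjusted p = 0.407). *Il6* was at 6.77 CPM in *Nf1*/*Cdkn2a* dKO line 3 and at 0.152 to 0.835 CPM in the other lines. Of the 6 proteases that cleave or shed chemokines, 0 were called in edgeR and 4 had an unadjusted p under 0.05, where 22.4% of all genes did. *Dpp4*, which trims *Cxcl10* and *Cxcl12* proteins, was highest (5.17, SE 1.52, adjusted p = 0.118) and *Mmp9* lowest (-5.00, SE 1.82, adjusted p = 0.177). *Dpp4* had 176 counts in all and was at most 0.0566 CPM in the *Nf1*/*p53* dKO lines, so it passed the filter through the other genotype. There it was at 0.209, 0.159 and 2.30 CPM in lines 1, 2 and 3. *Adam17* and *Adam10*, the sheddases of *Cx3cl1* and *Cxcl16*, were at 43.7 to 89.2 and 118 to 246 CPM.

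**Figure D5:**
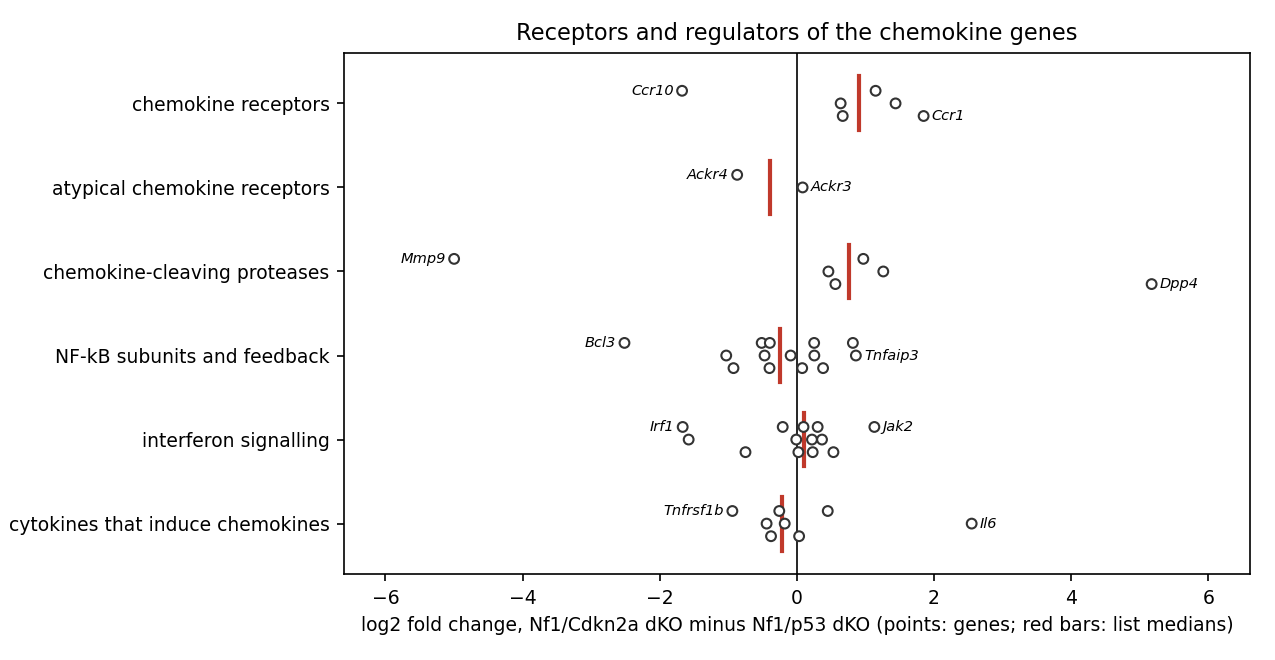
Log2 difference (*Nf1*/*Cdkn2a* dKO minus *Nf1*/*p53* dKO) of each tested gene (points) in 6 lists of chemokine receptors and regulators, with the list median (red bars); the lowest and highest gene of each list is named. All points are open, since 0 genes of these lists passed an adjusted p under 0.05.

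Of 12 leukocyte markers, 7 were tested and 2 were called between genotypes, both higher in the *Nf1*/*Cdkn2a* dKO lines, beside 0.638% of all genes. At an unadjusted p under 0.05 in edgeR there were 3 of the 7, beside 22.4% of all genes. The 12 markers summed to 6.91 to 11.02 CPM over the *Nf1*/*p53* dKO lines but to 32.7 to 45.5 CPM in the *Nf1*/*Cdkn2a* dKO lines. *Cd53* and *Laptm5* were the called markers (log2 differences 2.61 and 5.76, adjusted p = 0.0287 and 0.0301, edgeR). The log2 difference of *S100a8* was 5.67 (adjusted p = 0.0529), that of *Coro1a* -1.01 and that of *Csf1r* -0.76 (adjusted p = 0.269 and 0.527), and *Ptprc* and *Cd68* overlapped between genotypes, while *Adgre1* and *Cd3e*, which define macrophages and T cells, were at most 0.0424 CPM in any line. Of 8 endothelial markers, 5 were tested, with 3 negative and 2 positive log2 differences. *Esam* was called higher and *Tek* lower (5.50 and -3.23, adjusted p = 0.0381 and 0.0465, edgeR), beside 1.80% of all genes called. At an unadjusted p under 0.05 there were 4, beside 22.4% of all genes. The 8 summed to 1.99 to 3.00 CPM in the *Nf1*/*p53* dKO lines. In *Nf1*/*Cdkn2a* dKO lines they summed to 8.67 to 26.5 CPM, of which *Esam* alone was 6.35 to 24.6 CPM. *Pecam1* was lower there without overlap (-1.29, adjusted p = 0.162, edgeR). Mesenchymal markers summed to 8826 to 23520 CPM, and these sums overlapped between genotypes. In the mesenchymal, Schwann cell and epithelial lists 0 markers were called in edgeR, beside 1.80% of all genes. At an unadjusted p under 0.05 there were 1 of 8, 2 of 6 and 1 of 4 tested markers, beside 22.4% of all genes. The part of these markers in the chemokine differences was not tested.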

How the data were processed

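The authors deposited 1 table of unnormalized whole-number counts, with a row per gene and a column for each of 18 libraries. Per the submitters' processing notes, the tools included CASAVA, STAR 2.5 and DESeq2 1.14.1 and the build was GRCm38 (mm10), and the counting tool, strand setting and annotation are not given in the sources used here. Counts of the 3 cultures were summed per line. Genes were filtered with filterByExpr (minimum count 10, total 15), scaled with TMM and tested with edgeR 4.0.16 (quasi-likelihood, Benjamini-Hochberg over all genes, threshold 0.05, R 4.3.3). Signs are *Nf1*/*Cdkn2a* dKO minus *Nf1*/*p53* dKO, and CPM values use TMM factors. Lines of a genotype were compared in the 18 cultures with the same test. Alternatives used DESeq2 1.42.0, limma 3.58.1, other scalings and filters, blocks and each line or culture left out. Every member with 10 or more counts was named, and of the pathway lists the called, highest and lowest genes. The members, lists and tests were chosen with earlier results of these data known. The scripts were tested on simulated data. The precision of a genotype difference rests on the spread between the 3 lines of a genotype as well as on counts. Bounds from a floor of 3 counts cover counting error only. Figures used matplotlib 3.10.9. Some items are not reported here.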

Additional observations from a re-analysis of the deposited data

How the results depend on the processing

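Across 311 refits of a member's log2 difference, 251 kept direction and side of the threshold, 17 lost a call, 32 gained one and 11 changed sign, and in 0 was a member called higher. The number of members called was 3, beside 1.80% of all genes. With 18 cultures as separate samples it was 10 in edgeR or DESeq2, beside 46.5% and 48.9% of all genes. It was 6 in limma-voom with a random effect per line (16.6% of all genes) and 8 with DESeq2 on the 6 lines (14.3%). With 1 line left out it was 0 to 2, and the share of all genes in those fits is not given here. Lines that share a number are not paired by the labels and their deviations correlated at -0.130 to -0.0832, with 0 of 6 lines closest to their own number. With the line number as a replicate block 0 members were called, and this block with 6 lines leaves fewer residual degrees of freedom. With the culture number as a replicate block (18 cultures) 10 were called, in a fit that treats cultures of a line as independent. For the fits with a block the share of all genes is not given here, so their counts are no result about the members. Within genotypes the counts stayed at 18 or 19 and 12 to 14 members called, where the main fit called 73.2% and 56.8% of all genes.

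The sign changes were all in members that were not called: *Ccl17* with total counts (-0.063) and without *Nf1*/*p53* dKO line 1 (-0.36) or *Nf1*/*Cdkn2a* dKO line 2 (-0.88), *Ccl11* (0.32), *Ccl8* (0.73), *Cxcl1* (0.13) and *Ccl2* (0.12) without *Nf1*/*p53* dKO line 2, *Cxcl1* without *Nf1*/*Cdkn2a* dKO line 1 (0.11) or 3 (0.03), and *Cxcl12* without *Nf1*/*p53* dKO line 3 (-0.080) or *Nf1*/*Cdkn2a* dKO line 2 (-0.04). Over the lines left out in turn, the log2 differences ran from -0.88 to 0.74 for *Ccl17*, -3.39 to 0.32 for *Ccl11*, -0.97 to 0.73 for *Ccl8*, -1.32 to 0.13 for *Cxcl1*, -1.03 to 0.12 for *Ccl2* and -0.080 to 0.38 for *Cxcl12*. Their cause was not tested. Of 72 class sums under another scaling, 12 moved by more than the SD of the cultures, by at most 6.08%. With total counts these were 68.4 CPM (interferon-induced) and 110.0 CPM (homeostatic) in *Nf1*/*p53* dKO line 3, 231.7 CPM (homeostatic) in line 1 of that genotype, 108.6, 85.0 and 117.0 CPM (membrane-bound) in its lines 1, 2 and 3, and in the *Nf1*/*Cdkn2a* dKO lines 30.1 and 23.8 CPM (neutrophil-attracting, lines 2 and 3), 172.2 CPM (homeostatic, line 3), 88.0 CPM (monocyte-attracting, line 3) and 30.0 CPM (membrane-bound, line 1). With DESeq2's size factors the membrane-bound sum of *Nf1*/*p53* dKO line 2 was 84.4 CPM. Members under about 1 CPM rest on few counts per line, which limits the precision of their differences. *Cxcl9* had an adjusted p of 0.0728 in edgeR and of 0.000891 in DESeq2 on the 6 lines.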
